A study of Arabidopsis thaliana with 7 samples.

Results

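The chloroplast genome of Arabidopsis thaliana encodes part of each protein complex of the photosynthetic electron transport chain. The genes described here are those on the plastid chromosome (Pltd) whose symbol starts with psa, psb, pet or atp, together with rbcL, and that had a probe set naming that gene alone on the Affymetrix ATH1 array. By this rule 33 genes were found, of 13286 genes measured, and the gene table of the plastid chromosome held no further gene that fits the rule. They comprise 15 genes of photosystem II or its assembly, 5 of photosystem I, 6 of the cytochrome b6f complex, 6 of ATP synthase and 1 of Rubisco, and each was measured by 1 probe set. Another 36 plastid-encoded genes were measured and serve as a comparison.

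The study exposed plants to cadmium sulfide quantum dots (CdS QDs), crystals of a cadmium salt a few nanometres across. All plants were of the accession Ler-0, spent 14 days on Murashige and Skoog medium, and after transfer spent another 21 days with or without the particles. WT plants received 0, 40 or 80 mg/L, of which the labels mark 80 mg/L as the MIC, and the mutants atnp01 and atnp02 received 0 or 80 mg/L. The labels call the material seedlings and describe both mutants as tolerant of the particles, and which genes are disrupted in them is not given here. Each of the 7 groups was 1 array, so that no group had a replicate, and the 3 lines were the only repeat of the exposure.

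Photosystem II splits water and passes electrons to plastoquinone. The cytochrome b6f complex hands them on to plastocyanin while moving protons across the thylakoid membrane, photosystem I lifts them to ferredoxin, and ATP synthase uses the proton gradient to make ATP. Rubisco fixes carbon dioxide in the stroma, and rbcL encodes its large subunit. Most of these plastid genes lie in operons that are transcribed as long RNAs and then cut and trimmed, and the remaining subunits of each complex are encoded in the nucleus and imported.

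The deposited values are log2 signals, and array medians lay between 3.39 and 3.48. A level belongs to its own probe set, so levels were compared between arrays and never between genes. Genes with a mean of at least log2 5 over the 7 arrays were tested, 3217 in all. Among them were 22 of the 33 photosynthesis genes, while atpF, atpI, petN, psbD, psaA, petL, petG, psbB, psbT, petD and psaC were dimmer and were tested only in a fit of all 13286 genes with no floor. Values equal to the sixth decimal on at least 2 arrays occurred in 9 of the 33 genes and in 50.9% of all genes, so differences of a few hundredths carry no information. Of the green tissue markers, only RCA, the Rubisco activase, was measured (1 of 10), and it lay between 11.46 and 11.62 on every array. Of the root markers, PYK10 lay between 10.23 and 10.70 and EXPA7 between 1.29 and 1.88, and no seed marker was measured. RCA and PYK10 were both lower at 80 than at 0 mg/L in each line. PYK10 was called lower in the fit described below (coefficient -0.25 log2, SE 0.06, limma adjusted p = 0.0114). RCA was not called (coefficient -0.14, SE 0.05, limma adjusted p = 0.0572), and it lay near the top of the signal range, whose highest value on any array was 12.13. RNA was taken from whole plant material, and fewer cells of a type and less RNA per cell cannot be told apart in it.

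**Figure D1:**
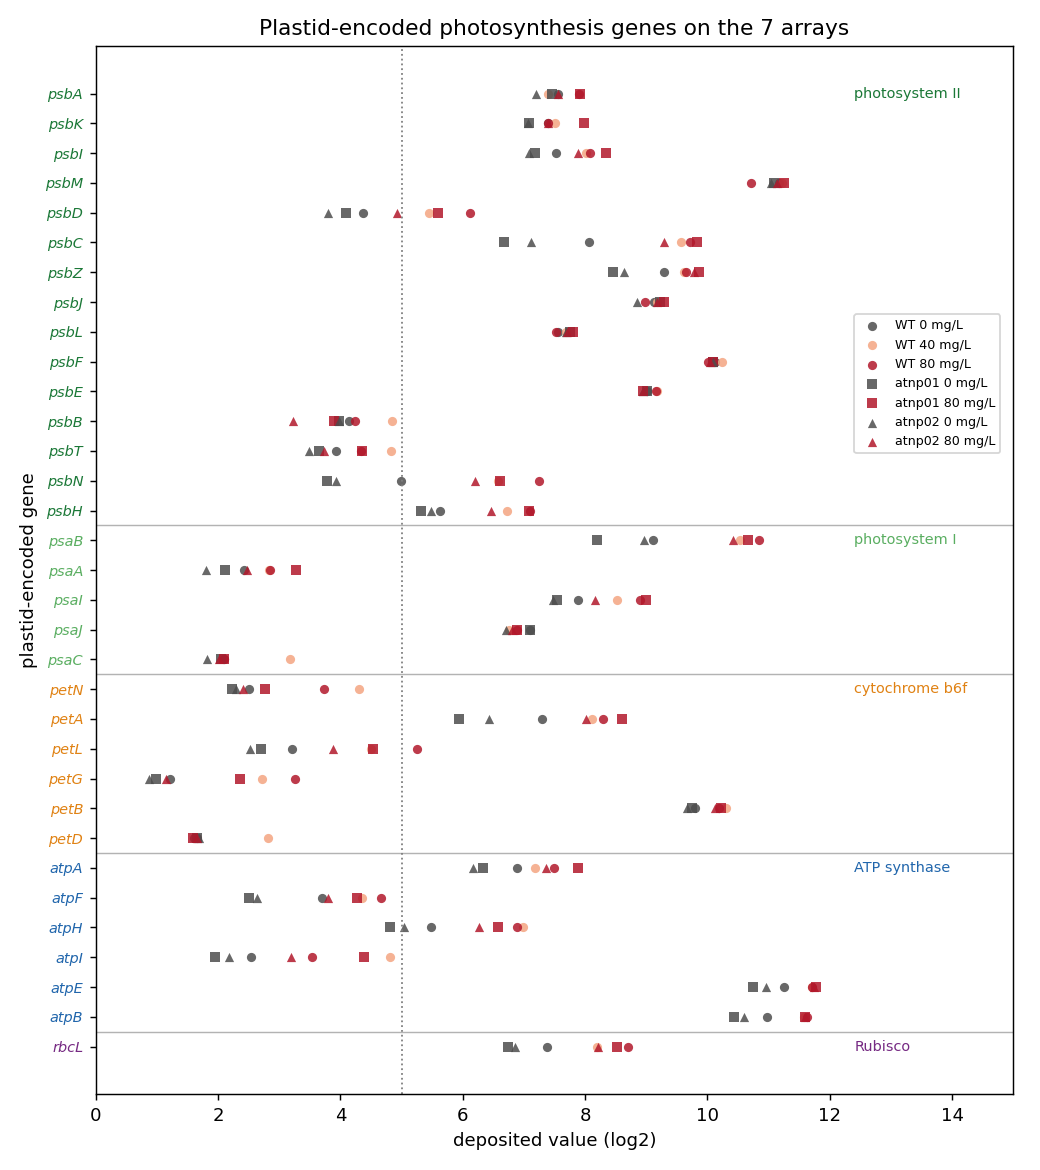
Deposited log2 values (horizontal axis) of the 33 plastid-encoded photosynthesis genes (rows, grouped by complex) on the 7 arrays; circles are WT, squares atnp01 and triangles atnp02, grey is 0 mg/L, light orange 40 mg/L and red 80 mg/L, and the dotted line marks the floor of log2 5. For psbC the 0 mg/L arrays lie between 6.68 and 8.06 and the 80 mg/L arrays between 9.29 and 9.83, while for psbF all 7 arrays lie between 10.004 and 10.24.

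At 80 mg/L most of these genes were higher than at 0 mg/L in all 3 lines. In the fit of the 6 arrays with line and dose as terms (limma, Benjamini-Hochberg adjustment over all genes tested), 15 of the 22 genes above the floor rose and none fell, where 22.4% of all 3217 genes rose and 24.6% fell. The 15 include psbN, whose mean reached the floor only through the exposed arrays. Without a floor, 22 of the 33 rose and none fell, where 9.45% of all 13286 genes rose and 9.78% fell. The median coefficient was 0.84 log2 over the 33 genes in that fit, and -0.04 over all genes. The arrays at 80 mg/L all lay above those at 0 mg/L for 19 of the 33, against 14.8% of all genes. For none of the 33 did they all lie below, against 18.5% of all genes. A difference above 0 in each of the 3 lines was found for 23 of the 33, against 20.3% of all genes, and one of at least 1 log2, taken as 2-fold, for 8 of the 33, against 1.57%.

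These tests carry 2 limits. With 2 residual degrees of freedom, the fit takes its error from how unequally the 3 lines responded, not from plants of 1 line. Anything that the exposed arrays shared in handling cannot be told apart from the exposure. The 27 poly-A spike-in probe sets, which target RNAs added to each sample in the laboratory, were on average lower on the exposed array of each line. Their mean difference was -0.36 log2 for WT (SD 0.28 over probe sets), -0.65 for atnp01 (SD 0.36) and -0.43 for atnp02 (SD 0.27). The 18 hybridization control probe sets differed by -0.10, -0.16 and -0.02. The labelling kit primes on poly(A) tails, which most plastid mRNAs lack, and the part of labelling in the results was not tested. The probe set of the cytosolic 25S ribosomal RNA, which has no such tail either, read 7.82, 8.01 and 6.94 in WT, atnp01 and atnp02 without particles and 8.29, 8.02 and 8.01 with 80 mg/L. That of the 5S ribosomal RNA was dim and lower with 80 mg/L in each line. It read 1.36, 1.17 and 1.21, then 0.91, 0.76 and 0.87. The 3' minus 5' signal of actin lay between 1.77 and 2.17 log2 over the arrays. In the same order of lines it read 2.05, 1.77 and 1.97 at 0 mg/L and 1.91, 2.17 and 2.06 at 80 mg/L. That of GAPDH read 0.58, 0.22 and 0.34, then 0.26, 0.38 and 0.385. For ubiquitin it lay between 0.49 and 0.59 on every array.

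The genes of the photosystem II core did not move alike. psbA encodes D1, the reaction centre protein that light damages and that is constantly replaced, psbD encodes its partner D2, and psbC and psbB encode the inner antenna proteins CP43 and CP47. psbC, psbD and psbA rose, whereas psbB gave no call.

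psbC was at 8.06 in WT, 6.68 in atnp01 and 7.11 in atnp02 without particles, and at 9.71, 9.83 and 9.29 with 80 mg/L. Its exposed arrays lay close together and its unexposed arrays far apart, with no overlap. The coefficient for 80 against 0 mg/L was 2.33 log2 (SE 0.25, 95% interval 1.74 to 2.92, limma adjusted p = 0.00051). psbD, which precedes psbC in the same operon, was dimmer, at 4.37, 4.09 and 3.80 without particles and 6.12, 5.59 and 4.92 with 80 mg/L in the same order of lines. These 2 sets of arrays did not overlap either, and psbD rose by 1.46 log2 in the fit without a floor (SE 0.13, limma adjusted p = 0.00138).

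psbA had a much smaller difference. Its values were 7.56, 7.46 and 7.20 without particles and 7.91, 7.91 and 7.56 with 80 mg/L, and the atnp02 array at 80 mg/L equalled the WT array at 0 mg/L to 2 decimals. The line-wise gaps were nearly equal, at 0.35, 0.45 and 0.36 log2, and the coefficient of 0.39 (SE 0.07) passed the test (limma adjusted p = 0.00458). psbA lay lower at 40 mg/L, at 7.40, and with that array counted as exposed the call was lost (coefficient 0.28, limma adjusted p = 0.158), as it was with a linear dose term (limma adjusted p = 0.0559). psbB was at 4.14, 3.97 and 3.97 without particles and at 4.24, 3.89 and 3.22 with 80 mg/L. Its sets of arrays overlapped, and its coefficient was -0.25 log2 (interval -0.67 to 0.18, limma without a floor, adjusted p = 0.4).

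Among the small proteins of photosystem II, psbN, psbH, psbZ and psbI rose, and the psbE operon gave no call. psbN encodes an assembly factor of the photosystem II reaction centre that is no subunit of the finished complex. It read 4.99, 3.78 and 3.93 without particles and 7.24, 6.61 and 6.20 with 80 mg/L. This was the highest coefficient of the 33, 2.45 log2 (SE 0.13, interval 2.15 to 2.75, limma adjusted p = 5.57e-05). All 3 unexposed arrays of psbN lay under log2 5, so its mean reached the floor only through the exposed arrays, and it was also called without a floor (limma adjusted p = 0.000374).

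psbH, a small phosphoprotein of photosystem II, read 5.63, 5.32 and 5.48 without particles and 7.10, 7.08 and 6.46 with 80 mg/L. The arrays did not overlap and psbH rose by 1.41 log2 (SE 0.14, limma adjusted p = 0.000421). psbZ, which lies near the junction of the core with the antenna, read 9.29, 8.45 and 8.64 without particles and 9.65, 9.87 and 9.78 with 80 mg/L. It rose by 0.97 log2 (SE 0.18, limma adjusted p = 0.00533), with a gap of 0.36 in WT and of 1.41 and 1.15 in atnp01 and atnp02.

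psbI and psbK encode small subunits at the edge of the complex and are neighbours in 1 operon. psbI rose by 0.84 log2 (SE 0.12, limma adjusted p = 0.00155), from 7.52, 7.18 and 7.08 to 8.08, 8.34 and 7.89. psbK did not pass (0.41, interval 0.03 to 0.79, limma adjusted p = 0.0723). Its values were 7.39, 7.08 and 7.06 without particles and 7.39, 7.98 and 7.39 with 80 mg/L, so the WT arrays did not differ and the atnp01 arrays were 0.90 log2 apart. Without the WT arrays psbK was called (0.61, limma adjusted p = 0.0302). psbT, a small subunit at the interface of the dimer, rose by 0.46 log2 in the fit without a floor (SE 0.12, limma adjusted p = 0.0479), with overlapping arrays between 3.49 and 3.92 without particles and between 3.74 and 4.36 with 80 mg/L.

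The values of the 4 genes of the psbE operon lay in narrow ranges, as did those of psaJ, given below. psbE and psbF encode the subunits of cytochrome b559, and psbL and psbJ encode small proteins beside it. psbF lay between 10.004 and 10.24 on all 7 arrays and psbE between 8.94 and 9.17. psbL lay between 7.53 and 7.81, and psbJ between 8.85 and 9.30. Their coefficients for 80 against 0 mg/L were -0.05 for psbF (interval -0.20 to 0.09), 0.01 for psbL (-0.16 to 0.17), 0.03 for psbE (-0.14 to 0.20) and 0.08 for psbJ (-0.15 to 0.31). Each of these intervals leaves out a change of 1 log2 in either direction. psbM, another small subunit, gave -0.07 (interval -0.35 to 0.22, limma adjusted p = 0.662), and its lowest array was WT at 80 mg/L, at 10.71, while the other 6 lay between 11.04 and 11.25.

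For photosystem I, psaA and psaB encode the large proteins that carry the reaction centre, psaC the subunit with the terminal iron-sulfur clusters, and psaI and psaJ small membrane subunits. psaB and psaI rose, psaA rose in the fit without a floor, and psaC and psaJ gave no call. psaB read 9.11 in WT, 8.20 in atnp01 and 8.97 in atnp02 without particles, and 10.84, 10.67 and 10.42 with 80 mg/L. The arrays did not overlap, and the coefficient was 1.88 log2 (SE 0.18, interval 1.47 to 2.299, limma adjusted p = 0.000314).

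psaI read 7.88, 7.54 and 7.47 without particles and 8.90, 8.999 and 8.16 with 80 mg/L, a rise of 1.06 log2 (SE 0.14, limma adjusted p = 0.00123). The atnp02 array at 80 mg/L was the lowest of the exposed arrays and still above every unexposed array. psaA was dim, between 1.81 and 2.43 without particles and between 2.47 and 3.27 with 80 mg/L, and its coefficient was 0.75 log2 (SE 0.17, limma without a floor, adjusted p = 0.0283).

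psaJ lay between 6.71 and 7.10 on all 7 arrays, and its coefficient was -0.11 (interval -0.32 to 0.10, limma adjusted p = 0.35). psaC lay between 1.82 and 2.1 on all arrays other than WT at 40 mg/L, where it read 3.18, and its coefficient for 80 against 0 mg/L was 0.09 (limma without a floor, adjusted p = 0.657). At such dim signals a missing call does not show that psaC RNA was unchanged.

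In the cytochrome b6f complex, petA encodes cytochrome f, petB cytochrome b6, petD subunit IV, and petG, petL and petN small membrane subunits. petA and petB rose, petL and petG rose in the fit without a floor, and petN and petD gave no call. petA read 7.30, 5.94 and 6.43 without particles and 8.29, 8.60 and 8.01 with 80 mg/L, with no overlap. Its line-wise gaps were 0.99, 2.66 and 1.58 log2, and the coefficient was 1.74 (SE 0.28, interval 1.09 to 2.40, limma adjusted p = 0.00252).

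petB rose by 0.44 log2 (SE 0.06, limma adjusted p = 0.00143), a small difference that was nearly equal in the lines. It read 9.79, 9.75 and 9.66 without particles and 10.18, 10.22 and 10.12 with 80 mg/L. petL read 3.20, 2.70 and 2.53 without particles and 5.25, 4.54 and 3.88 with 80 mg/L, and rose by 1.75 log2 (SE 0.15, limma without a floor, adjusted p = 0.00133).

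petG, its neighbour, lay at 1.21, 0.99 and 0.87 without particles and at 3.25, 2.36 and 1.16 with 80 mg/L. Its sets of arrays overlapped through atnp02, whose exposed array was lower than the unexposed WT array. The 3 unexposed arrays and the exposed atnp02 array of petG lay under the lower quartile of their arrays (1.29 to 1.37), so no exact size or rank can be read from differences against them. The coefficient of petG was 1.23 log2 (SE 0.31, limma without a floor, adjusted p = 0.0388). petN read 2.51, 2.22 and 2.29 without particles and 3.74, 2.77 and 2.40 with 80 mg/L (coefficient 0.63, adjusted p = 0.105). petD lay between 1.59 and 1.69 on the 6 arrays of the fit (coefficient -0.02, adjusted p = 0.928).

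All 6 plastid genes of ATP synthase rose in the fit without a floor, and the 4 of them above the floor also rose in the fit with it. atpA and atpB encode the alpha and beta subunits of the catalytic head, atpE the epsilon subunit, atpH the ring through which protons pass, and atpF and atpI the membrane subunits beside the ring. Their coefficients lay between 0.76 log2 for atpE and 1.48 for atpI, with a median of 1.21, and for each of the 6 the exposed arrays lay above the unexposed ones.

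atpH read 5.49 in WT, 4.81 in atnp01 and 5.03 in atnp02 without particles, and 6.89, 6.58 and 6.27 with 80 mg/L, a rise of 1.47 log2 (SE 0.11, interval 1.21 to 1.73, limma adjusted p = 0.000147). atpA read 6.88, 6.33 and 6.17, then 7.48, 7.88 and 7.37, and rose by 1.12 log2 (SE 0.17, limma adjusted p = 0.00195). In both genes the unexposed WT array was the highest of the unexposed arrays.

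atpB rose by 0.95 log2 (SE 0.10, limma adjusted p = 0.000447), from 10.97, 10.43 and 10.59 to 11.63, 11.60 and 11.60. atpE, which shares its transcript, rose by 0.76 log2 (SE 0.10, limma adjusted p = 0.00146), from 11.25, 10.74 and 10.96 to 11.71, 11.78 and 11.74. For both genes the exposed arrays lay within 0.1 log2 of one another, near the top of the signal range, whose highest value on any array was 12.13.

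The dim atpF rose by 1.297 log2 (SE 0.17, limma without a floor, adjusted p = 0.00456), from 3.71, 2.51 and 2.64 to 4.67, 4.27 and 3.80. atpI rose by 1.48 log2 (SE 0.29, adjusted p = 0.0186 in the same fit), from 2.53, 1.95 and 2.18 to 3.53, 4.39 and 3.20. rbcL, the large subunit of Rubisco, read 7.38, 6.73 and 6.85 without particles and 8.71, 8.53 and 8.21 with 80 mg/L. It rose by 1.495 log2 (SE 0.11, interval 1.24 to 1.75, limma adjusted p = 0.00012), with line-wise gaps of 1.33, 1.79 and 1.36.

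The coefficients of neighbours in 1 operon lay close together in some operons and far apart in others, and differences between genes of an operon were not tested. The 4 genes of the psbE operon lay between -0.05 and 0.08 log2, as given above. In the large atp operon the atp genes lay close together, from 1.12 log2 for atpA to 1.48 for atpI. Farther off, rps2, a ribosomal protein gene of that operon, rose by 2.25 (SE 0.24, limma without a floor, adjusted p = 0.00237). The unexposed arrays of rps2 read 4.83, 3.50 and 4.45, so like psbN it reached the floor only through the exposed arrays, which read 6.70, 6.55 and 6.28. In the psbD operon the coefficients ran from 0.97 for psbZ through 1.46 for psbD to 2.33 for psbC. In the psaI operon psaI and petA rose by 1.06 and 1.74, whereas cemA, a chloroplast envelope membrane protein gene between them, gave 0.11 (SE 0.10, limma adjusted p = 0.39), and the dim ycf4, a photosystem I assembly gene, gave -0.11 (limma without a floor, adjusted p = 0.694). In the psaA operon psaA and psaB gave 0.75 and 1.88, and the dim ribosomal protein gene rps14 gave 0.13 (adjusted p = 0.474 in the same fit).

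In the petL operon the dim petL and petG gave 1.75 and 1.23 log2, while psaJ gave -0.11 and the ribosomal protein genes rpl33 and rps18 gave -0.10 and 0.11, neither of them called. In the psbB operon psbH rose by 1.41 and petB by 0.44, and the dim psbT rose by 0.46 in the fit without a floor. The dim psbB and petD gave -0.25 and -0.02, with no call in that fit. psbN, the gene with the highest coefficient, lies within that operon on the opposite strand, and whether its probe set parts its RNA from that of the opposite strand was not tested. psaC lies in the operon of ndhD, a subunit gene of the NADH dehydrogenase-like complex, and ndhD fell by 1.17 log2 (SE 0.07, limma adjusted p = 7.94e-05), while ndhA and ndhI gave -0.10 and -0.06 with no call. Of the dim genes of that operon, ndhE rose by 0.59 log2 (SE 0.14, limma without a floor, adjusted p = 0.032), and ndhG and ndhH gave -0.10 and 0.20 with no call in that fit.

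**Figure D2:**
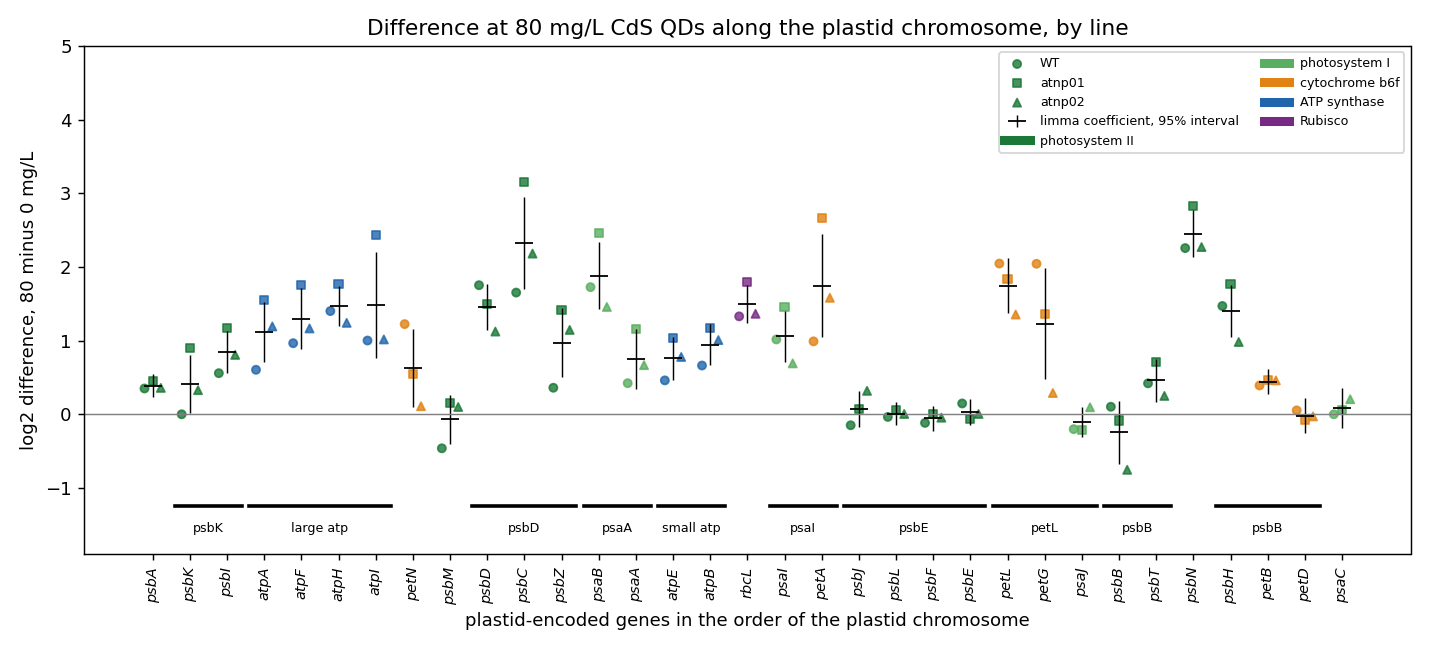
Log2 difference between 80 and 0 mg/L (vertical axis) of the 33 genes in the order of the plastid chromosome (horizontal axis), with 1 point for each line, coloured by complex; crosses are limma coefficients of the fit without a floor with 95% intervals, and bars underneath mark operons. The 4 genes of the psbE operon and psaJ lie near 0, and psbN and psbC have coefficients of 2.45 and 2.33.

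In WT alone, the difference was already present at 40 mg/L. Each of these values compares single arrays, with no replicate check and no test, and both doses are set against the same array at 0 mg/L. Between 0 and 40 mg/L, 12 of the 33 genes were at least 2-fold higher, where 2.38% of all genes were, and none was 2-fold lower, where 1.21% were. Between 0 and 80 mg/L, 12 of the 33 were 2-fold higher, where 2.47% of all genes were, and none was 2-fold lower, where 1.35% were. The median difference of the 33 was 0.64 log2 at 40 mg/L and 0.56 at 80 mg/L, and that of all genes was 0.00 at either dose. Above the floor, 5 of the 22 were 2-fold higher at 40 mg/L, where 3.39% of all 3217 genes were. At 80 mg/L 7 of the 22 were, where 3.51% of all 3217 were. Both counts include psbN, which read 4.99 in WT at 0 mg/L and reached the floor only through its exposed arrays. The medians of the 22 were 0.47 log2 at 40 mg/L and 0.51 at 80 mg/L, the opposite order to that of the 33.

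At 40 mg/L atpI (2.28 log2), petN (1.79), psbN (1.59), psbC (1.51) and atpH (1.502) were highest. At 80 mg/L psbN (2.26), petL (2.05), psbD (1.75), psaB (1.73) and psbC (1.65) led. petG was left out of both rankings, since its array at 0 mg/L lay under the lower quartile. The lowest was psaJ at 40 mg/L (-0.33) and psbM at 80 mg/L (-0.46).

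From 40 to 80 mg/L no gene of the 33 was 2-fold higher, where 0.647% of all genes were, and the highest difference was that of petL, 0.74 log2. atpI, petD and psaC were 2-fold lower, where 0.444% of all genes were, with differences of -1.28, -1.16 and -1.08. petD and psaC read 2.81 and 3.18 at 40 mg/L, against 1.61 and 2.1 at 0 mg/L and 1.66 and 2.1 at 80 mg/L, and atpI read 4.81, against 2.53 and 3.53. All 3 lay under the floor.

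A rising order over 0, 40 and 80 mg/L was found for 17 of the 33, where 14.4% of all genes had it, and included rbcL at 7.38, 8.19 and 8.71 and psbN at 4.99, 6.58 and 7.24. The value at 40 mg/L was above both others for 14 of the 33, where 27.9% of all genes had that order. It was below both others for psbA and psaJ. The poly-A spike-ins were lower by -0.30 log2 on average at 40 mg/L than at 0 mg/L (SD 0.23), and differed by -0.06 between 80 and 40 mg/L. The part of this in the dose order was not tested.

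**Figure D3:**
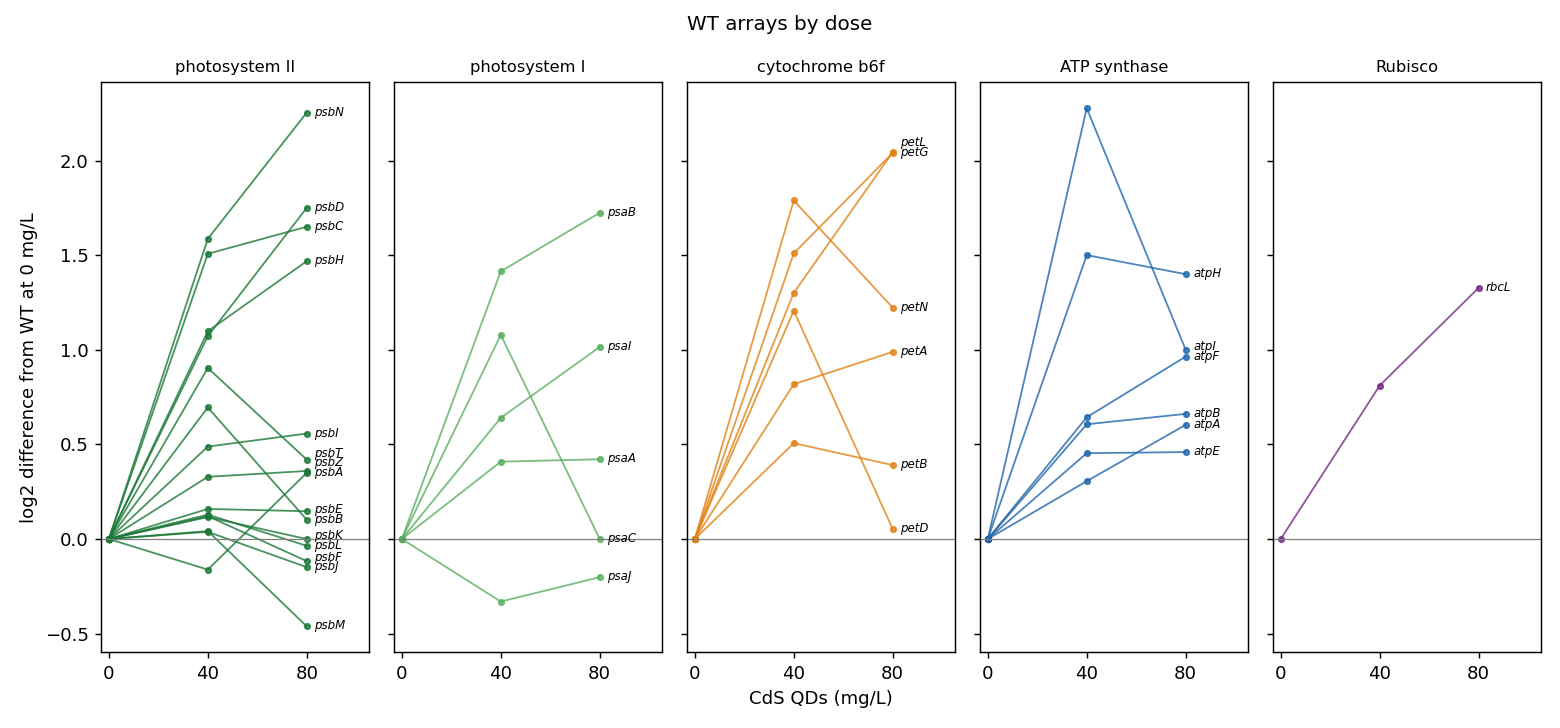
Log2 difference from the WT array at 0 mg/L (vertical axis) against the dose of CdS QDs in mg/L (horizontal axis) for the 33 genes, 1 line for each gene, in a panel for each complex; label positions are spread so that they can be read. psbN, psbD and rbcL rise in order to 2.26, 1.75 and 1.33, whereas atpI, petD and psaC are highest at 40 mg/L.

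Both mutants also had many of these genes higher at 80 mg/L, with larger values in atnp01. In atnp01, 19 of the 33 genes were at least 2-fold higher at 80 than at 0 mg/L, where 3.15% of all genes were, with a median of 1.17 log2. In atnp02 this held for 13 of the 33, where 3.82% of all genes were, with a median of 0.69. None was 2-fold lower in atnp01 or in atnp02, where 2.08% and 2.15% of all genes were. The gap was largest in atnp01 for 23 of the 33, where 31.4% of all genes had their highest difference in that line, in WT for 7 and in atnp02 for 3. The highest value in atnp01 was that of psbC, 3.15 log2, followed by psbN (2.83), petA (2.66), psaB (2.47) and atpI (2.43). In atnp02 psbN (2.27), psbC (2.18), petA (1.58), psaB (1.46) and rbcL (1.36) led, and psbB was lowest (-0.75). The poly-A spike-ins had their largest drop in atnp01 as well, by -0.65 log2, and its part in these sizes was not tested.

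Whether the mutants responded otherwise than WT was tested with a mutant-by-dose term, which takes both mutants as 1 class and leaves 1 residual degree of freedom. limma called none of the 22 genes above the floor and none of all 3217 genes (0% called), and at an unadjusted p under 0.05 it had 5 of the 22 and 7.93% of all genes. The term was above 0 for 20 of the 22, where 42.1% of all genes were, and its median was 0.27 log2, against -0.04 for all genes. Without a floor it was above 0 for 25 of the 33, where 5903 of all 13286 genes were, and its median was 0.14, against -0.03 for all genes. The median of the cytochrome b6f genes was 0.60 with the floor, over only 2 genes, petA and petB. It was -0.28 without a floor, over 6 genes, and the genes added there were dim, among them petG, whose exact size cannot be read. With the floor the term was highest for petA (1.13, interval -0.05 to 2.31, limma adjusted p = 0.595), psbC (1.01, interval -0.05 to 2.07, adjusted p = 0.595) and psbZ (0.92, interval 0.52 to 1.32, adjusted p = 0.542). The call depends on the setting. With quantile normalization petA, psbC, psbZ and atpA of 22 passed, where 1.02% of all genes were called higher, and with a floor of log2 6 psbZ and psbM of 21 did, where 0.471% were.

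Without particles the mutants tended to lie below WT. In atnp01, 4 of the 33 were at least 2-fold lower than in WT, where 0.263% of all genes were: psbC (-1.38 log2), petA (-1.36), psbN (-1.21) and atpF (-1.20). The median of the 33 was -0.31, and 4 of them were above WT, where 49.5% of all genes were. In atnp02, atpF (-1.07) and psbN (-1.06) were 2-fold lower, where 0.12% of all genes were, the median was -0.36, and 2 of the 33 were above WT, where 48.4% of all genes were. Both mutants are set against the same WT array, and each comparison is of single arrays with no test. The unexposed mutant arrays enter the gaps described above too, so a low unexposed value and a large gap are not separate observations. The poly-A spike-ins differed from those of WT by 0.17 log2 in atnp01 and -0.12 in atnp02.

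With 80 mg/L atnp01 lay around WT, and several genes of atnp02 lay below it. In atnp01 none of the 33 was 2-fold higher or lower, where 0.399% and 0.625% of all genes were, and the median difference was 0.00, between -0.97 for petN and 0.85 for atpI. In atnp02, 6 of the 33 were 2-fold lower than in WT, where 0.346% of all genes were: petL (-1.37 log2), petN (-1.33), psbD (-1.20), psbN (-1.05), psbB (-1.02) and petG, which at 1.16 lay under the lower quartile of the atnp02 array (1.29). The median in atnp02 was -0.34. Of these 6 genes only psbN lay above the floor.

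Over both doses together, limma called none of the 22 genes between atnp01 and WT, where 0.124% of all genes were called, none between atnp02 and WT, where 0.0311% were, and none between the mutants, where 0.0933% were. At an unadjusted p under 0.05 there were 5, 5 and 2 of the 22, against 8.83%, 6.75% and 8.46% of all genes. Among the 22, psbN had the lowest coefficient in both mutants, -0.92 in atnp01 (interval -1.29 to -0.55, limma adjusted p = 0.109) and -1.06 in atnp02 (interval -1.42 to -0.69, limma adjusted p = 0.187). As given above, psbN reached the floor only through its exposed arrays. In the fit without a floor its limma adjusted p was 0.353 in atnp01 and 0.606 in atnp02. Next in size among the 22 were psbC (-0.64), psaB (-0.54) and petA (-0.52) in atnp01, and psbC (-0.69), petA (-0.58) and psaI (-0.57) in atnp02, with no call. Without a floor, atpF gave -0.80 in atnp01, and petL and atpF gave -1.02 and -0.97 in atnp02, also with no call. In atnp02 petG was lower still, at -1.22 with no call, but both of its atnp02 arrays lay under the lower quartile.

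**Figure D4:**
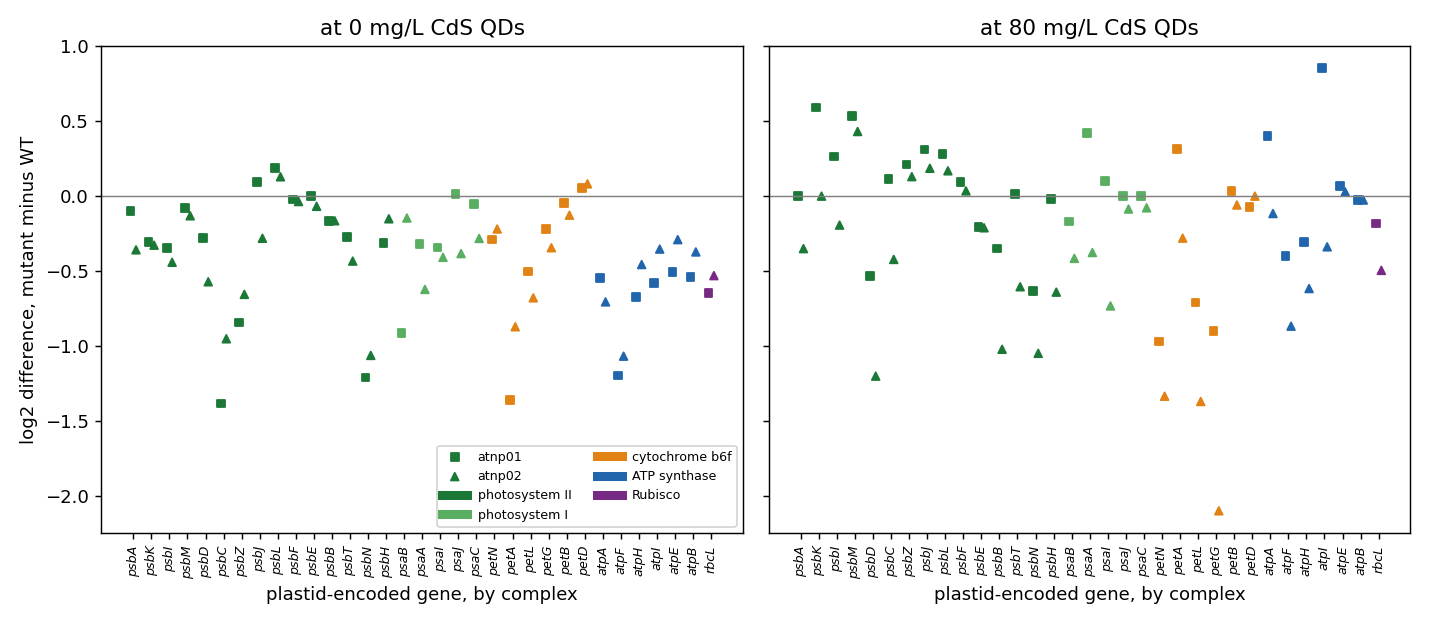
Log2 difference of each mutant from WT (vertical axis) for the 33 genes ordered by complex (horizontal axis), at 0 mg/L in the left panel and at 80 mg/L in the right; squares are atnp01 and triangles atnp02, 1 array against 1 array. At 0 mg/L most points lie under 0, down to -1.38 for psbC in atnp01, and at 80 mg/L the lowest points are petG, dim in atnp02, and petL in atnp02 at -1.37.

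The other plastid-encoded genes also held many that rose. In the fit without a floor 18 of the 36 rose and 1 fell at 80 mg/L, with a median of 0.57 log2, beside 22 of 33 and 0.84 for the photosynthesis genes. Of all 13286 genes, 9.45% rose and 9.78% fell in that fit, with a median of -0.04. By class, 9 of 15 ribosomal protein genes rose (median 0.66), 2 of 4 genes of the plastid RNA polymerase (0.88), 3 of 10 genes of the NADH dehydrogenase-like complex (0.07), with ndhD as the 1 that fell, and 4 of 7 others (0.46). The difference between the photosynthesis genes and these classes was not tested.

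The nuclear partners of these complexes were thinly covered. Of all 3217 genes in the fit with a floor, 24.6% were called lower and 22.4% higher at 80 mg/L. Of 28 nuclear photosystem subunit genes listed, 4 were measured, and 3 of them fell by small amounts at 80 mg/L: PSAN by 0.45 log2 (SE 0.07, limma adjusted p = 0.00213), PSBY by 0.40 (SE 0.06, adjusted p = 0.00176) and PSAE-1 by 0.24 (SE 0.06, adjusted p = 0.0156), while PSBW gave -0.11. PSAN, a lumenal subunit of photosystem I, read 10.82, 10.86 and 10.87 without particles and 10.45, 10.48 and 10.27 with 80 mg/L, so its arrays parted in the direction opposite to psaB. Of 23 antenna genes 3 were measured, all for the minor antenna protein CP29. LHCB4.2 fell by 0.79 log2 (SE 0.06, limma adjusted p = 0.000153) and LHCB4.1 by 0.24 (adjusted p = 0.0486), and LHCB4.3 rose by 1.09 (SE 0.10, adjusted p = 0.000269). The calls of PSAE-1 and LHCB4.1 were lost without a floor (limma adjusted p = 0.0888 and 0.153), without the atnp01 arrays (0.0848 and 0.0797) without the atnp02 arrays (0.0924 and 0.0543), with cyclic loess (0.0939 and 0.271), which moved both coefficients to -0.14, and with dose as a linear term (0.0576 and 0.116). That of LHCB4.1 was also lost without the WT arrays (0.125), with WT at 40 mg/L counted as exposed (0.0549) and without the intensity trend (0.0747).

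Of 18 nuclear genes for cytochrome b6f, ATP synthase and Rubisco or its activation, 2 reached the floor, and neither was called. In the fit with a floor 47% of all 3217 genes were called in either direction. ATPC1, the gamma subunit of ATP synthase, gave -0.13 log2 (SE 0.06, limma adjusted p = 0.111), beside coefficients of 0.76 to 1.48 for the plastid-encoded subunits of that enzyme. RCA gave -0.14 (SE 0.05, limma adjusted p = 0.0572). Of 39 plastid RNA processing and assembly factors 5 were measured, HCF101, LPA1, LPA2, PAM68 and ATAB2, and none was called, with coefficients between -0.22 and -0.08. The nuclear sigma factors and the proteins associated with the plastid RNA polymerase, which control transcription of these genes, had no gene measured by a probe set of its own under the annotation used.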

How the data were processed

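Transcript levels of 7 arrays were read from the deposited table, whose values are on a log2 scale. Per the submitters' processing notes the tools were Affymetrix Expression Console 1.1 and RMA, a method that corrects background, normalizes arrays to one another and summarises probes. No source used here gives the probe-set definition or any later step, so a log2 difference of 1 is called 2-fold on the assumption that none followed. Probe sets were named through the platform annotation, of which 13513 of 22810 had 1 gene, and 13436 matched the gene table of assembly TAIR10.1. The brightest probe set by mean stood for a gene. The genes, operons and nuclear lists were chosen with earlier results of these data known.

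The 6 arrays without and with 80 mg/L were modelled in limma 3.58.1 (R 4.3.3) by line and dose, with an intensity trend in the moderation, and Benjamini-Hochberg adjustment at 0.05 over all genes tested. Pairs of single arrays were compared without a test. All 33 genes of the rule are named, with their operon neighbours. The fit was tested on simulated data. Alternatives changed the floor, the normalization, the moderation, the lines and the dose term. Precision is limited by the number of arrays. Python 3.11.15 and pandas 2.3.3 handled the tables. No sequence or coordinate is printed, since no source used here names the build of the files.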

Additional observations from a re-analysis of the deposited data

Results flagged for a closer look

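A control probe set that belongs to none of the comparisons, AFFX-r2-At-U12639_at, separated the lines. It read 1.24, 1.56 and 1.03 log2 on the WT arrays at 0, 40 and 80 mg/L. It read 7.20 and 7.25 on the atnp01 arrays and 7.10 and 7.32 on the atnp02 arrays, so the lowest mutant array lay 5.55 log2 above the highest WT array. Its target is not named in the sources used here. It divides the arrays as their labels do. No group had the 4 arrays needed to look for an outlying array.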

How the results depend on the processing

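The count of photosynthesis genes that rose at 80 mg/L was 15 in the fit as reported, lay between 14 and 16 under every alternative with a floor that was run, and was 22 of 33 without a floor. Leaving out the arrays of 1 line gave 15 to 16. None fell under any of these, and no called value changed direction. At the level of genes, psbA and psbK were the exceptions given above, both open to the choice of arrays.

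The mutant-by-dose count went from 0 to 2 genes called higher with a mean of at least log2 6 and to 4 with quantile normalization. The cause was not tested, although the higher floor also tests fewer genes. With 1.5-fold in place of 2-fold, WT at 40 against 0 mg/L had 19 genes higher in place of 12 (6.2% of all genes), WT at 80 against 40 mg/L had 3 higher in place of 0 (2.29%), and atnp02 at 80 against 0 mg/L had 1 lower in place of 0 (6.96%). The mutants against WT, whose pairs were added after the data were seen, then had 8 genes lower in each at 0 mg/L (1.47% and 1.05% of all genes). At 80 mg/L atnp01 had 2 higher (1.57%) and 4 lower (2.57%), and atnp02 had 11 lower (1.54%). No scaling moved the median of all genes by over 0.1 log2. No paired analysis was possible because the labels give no replicate numbers, other than the pairing by line that the line term of the reported fit already makes. Differences among dim probe sets are limited by signal over background, and 11 of the 33 genes lay under the floor.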
